A study of Mus musculus with 48 samples.

Results

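The joints described here linked the mouse Jκ1 break to the Vκ region with at least 5 inserted bases, that is, bases lying between the end of the bait alignment and the start of the prey alignment of a read. They were taken from every library by position, as rows whose prey junction fell in the Vκ region of chromosome 6 and whose gap between the alignments was 5 bases or more. Their junctions ran from chr6:67506183 to chr6:70654212 (mm9). Insertion length was thus the measured value that chose them. The rule kept 80647 of 7265223 Vκ region rows (1.11%), against 419825 rows with 1 to 4 inserted bases. A row is a sequenced read pair and PCR copies were not removed. A distinct joint was therefore defined by prey position, strand, bait end and inserted sequence, which gave 43762 of 338557 distinct Vκ joints (12.9%) summed over libraries. These carried 10927 different inserted sequences, and the longest insertion had 30 bases. Copies that differ by a sequencing error count as different joints under this definition. Around the threshold, WT cells arrested with DMSO gave 12945 rows with 4 inserted bases and 2484 with 5 from the coding end, and Ku70-/- cells gave 756 and 418.

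The study used HTGTS-JoinT-seq, in which a primer beside a known break (the bait) is extended across the joint into whatever DNA (the prey) was ligated to it. The cells were vAbl pro-B cells, mouse progenitor B cells transformed with the Abelson kinase, of genotype WT (clone B) or Ku70-/- (clone B1), so each genotype was represented by a single clone. Cells were either cycling, or arrested in G1 for 96 h with STI-571 (an Abl kinase inhibitor, 3 μM) together with DMSO, the DNA ligase inhibitor L67 (5 μM) or the ligase inhibitor L82-G17 (25 μM). Joints were read from the coding end (Jκ1CE bait) or the signal end (Jκ1SE bait), which gave 16 groups of 3 libraries and 48 libraries in all. Replicate numbers follow the order of deposit and only name a library. The study's legends describe 3 biological repeats of its experiments, but the labels do not tie these libraries to separate cultures, so p-values measure the spread between these libraries, which may be technical.

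During V(D)J recombination the RAG1/2 nuclease cuts between a gene segment and its recombination signal, leaving a hairpin-sealed coding end and a blunt signal end. Opening of the hairpin away from its tip leaves an overhang that, once filled in, adds a short palindrome (P nucleotides) to the coding end. In NHEJ, Ku70 and Ku80 hold the ends with little loss of bases, while alternative end joining (A-EJ), the route left in Ku70-deficient cells, joins resected ends. The study describes A-EJ joints of arrested cells as mostly direct, and A-EJ of cycling cells as relying more on microhomology. Template-free addition by terminal deoxynucleotidyl transferase is the other textbook source of inserted bases at antigen receptor joints.

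Each library was drawn from 500000 read pairs and held between 8294 and 385847 rows, of which 88.1% over all libraries lay in the Vκ region. Replicate 1 of the Ku70-/- STI-571 + DMSO group stood apart with both baits. It held 967 distinct Vκ joints from the coding end against 13039 and 12188 in replicates 2 and 3, and 1012 against 13458 and 10826 from the signal end. Neither of these libraries is in the study's own list. Where they carry weight, the library values or the result without them are given. Break sites were read from the pile-up of junctions in the arrested WT Jκ1SE libraries, which gave 138 sites in the Vκ region. Joints of both genotypes and both baits were measured against these sites. Of these, 94 lay beside an annotated Igkv gene and 111 carried the heptamer CACAGTG on their signal side.

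The joint with the most rows in each of the 4 arrested DMSO sets is printed here because each shows a different make-up of the inserted bases. Bait bases stand first in lower case, the insertion is in capitals and prey bases follow.
WT, Jκ1CE bait: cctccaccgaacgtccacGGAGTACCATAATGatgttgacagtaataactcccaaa
Ku70-/-, Jκ1CE bait: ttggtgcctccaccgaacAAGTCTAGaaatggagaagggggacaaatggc
WT, Jκ1SE bait: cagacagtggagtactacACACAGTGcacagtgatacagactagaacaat
Ku70-/-, Jκ1SE bait: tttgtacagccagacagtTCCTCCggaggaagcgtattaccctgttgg

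The WT coding end joint was read in 111 rows and its prey mapped at chr6:69714534-69714557 beside Igkv12-46, yet its 14 inserted bases are not next to that gene in the genome. They stand, joined to the same downstream bases, at the coding end of Igkv12-44, so the printed prey side reads as Igkv12-44 without a break. The germline coding ends of both genes are printed with the inserted bases in capitals.
Igkv12-44, chr6:69764625-69764665, plus strand: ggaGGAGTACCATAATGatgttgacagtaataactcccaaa
Igkv12-46, chr6:69714517-69714557, plus strand: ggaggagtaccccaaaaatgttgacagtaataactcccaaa
The Ku70-/- coding end joint was read in 200 rows. Its prey lay 363 bp from the nearest break site, and its 8 inserted bases matched no Vκ end and no end palindrome. The WT signal end joint had 44 rows and its prey began exactly at the Igkv4-53 signal end. The Ku70-/- signal end joint had 109 rows and its insertion TCCTCC is the reverse complement of the first prey bases ggagga at an untrimmed coding end (chr6:68581957-68581980, plus strand).

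The share of Vκ rows with a long insertion depended on bait, genotype and growth state together. With the Jκ1CE bait, arrested WT cells given DMSO had 2.55%, 2.11% and 2.28% of Vκ rows with a long insertion, a mean of 2.31% ± 0.223 (SD, n = 3). Ku70-/- cells in the same treatment had 0.113%, 1.34% and 1.30%, a mean of 0.918% ± 0.697 (SD, n = 3), and every Ku70-/- library lay below every WT library. With L67 the means were 2.45% ± 0.312 in WT and 1.20% ± 0.147 in Ku70-/- (SD, n = 3), again without overlap. With L82-G17 they were 1.85% ± 0.805 and 1.22% ± 0.162 (SD, n = 3), and the libraries overlapped. This order depended on insertions that match the end of another Vκ gene, a class described with its values further on. Without them, the means in DMSO were 0.407% ± 0.00383 in WT and 0.588% ± 0.441 in Ku70-/- (SD, n = 3), the Ku70-/- libraries giving 0.0801%, 0.870% and 0.814%. With L67 they were 0.425% and 0.641%, and with L82-G17 0.291% and 0.504%, so that all arrested treatments turned to a higher Ku70-/- mean, without overlap for L67 and L82-G17. That turn held for rows only. With each distinct joint counted once and matching insertions left out, WT was higher, at 5.72% ± 0.352 against 1.99% ± 0.966 in DMSO, 5.24% ± 0.279 against 1.18% ± 0.226 with L67 and 3.77% ± 0.344 against 0.972% ± 0.109 with L82-G17 (SD, n = 3), without overlap in any of them. In cycling cells the order of all long insertions was turned, with 0.599%, 0.861% and 0.962% in WT and 6.14%, 8.90% and 5.53% in Ku70-/-. Averaged over the 4 treatments, Ku70-/- differed from WT by 0.692 percentage points (adjusted p = 0.473, exact two-sided permutation test over 160000 arrangements, Benjamini-Hochberg over 26 tests). That average joined differences of 6.05 points in cycling cells and −1.40, −1.26 and −0.632 points in the 3 arrested treatments.

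Long insertions were rarer at the signal end. With the Jκ1SE bait, WT cells given DMSO had 158, 160 and 172 such rows, or 0.0462%, 0.0487% and 0.0525% of Vκ rows. Ku70-/- cells given DMSO had 0.120%, 0.642% and 0.479%, and with L67 and L82-G17 they had 0.579% ± 0.0649 and 0.567% ± 0.0604 against 0.0653% ± 0.0235 and 0.0388% ± 0.00911 in WT (SD, n = 3). Cycling WT libraries held only 7, 2 and 3 rows (0.0329%, 0.00964% and 0.0155%), and cycling Ku70-/- libraries 1.64%, 7.26% and 1.11%. The genotypes did not overlap in any treatment, and Ku70-/- was higher by 1.18 points on average (adjusted p = 0.000162, exact two-sided permutation test; the unadjusted p of 1.25e-05 is the smallest the design can give). Without replicate 2 of the cycling Ku70-/- libraries the difference was 0.691 points, at the same p. Counting each distinct joint once, the difference was 0.519 points (unadjusted p = 0.119, exact permutation test). Leaving out insertions that match another Vκ end as well turned it to −0.512 points (unadjusted p = 0.288, same exact permutation test). That average joined a higher Ku70-/- mean in cycling cells (3.05% against 1.12%) with lower ones in DMSO (1.78% against 2.69%), L67 (0.717% against 2.65%) and L82-G17 (0.762% against 1.89%), the last 2 without overlap. The Ku70-/- DMSO libraries gave 3.75%, 0.810% and 0.776%, the first from the sparse replicate 1, against 2.25%, 2.93% and 2.89% in WT. Only replicate 1 overlapped with WT.

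The signal end of WT cells had fewer long insertions than the coding end. The difference was −1.81 points in WT (adjusted p = 0.000162, exact two-sided permutation test), where the baits did not overlap in any treatment. In Ku70-/- it was −1.32 points (adjusted p = 0.0404, same exact permutation test), with overlap between the baits in cycling and DMSO-treated cells. For insertions of 10 or more bases the Ku70-/- difference turned to 0.0393 points. For 5 or more bases the Ku70-/- difference lost its call without any of the 3 cycling Jκ1CE libraries (−1.41, −1.07 and −1.49 points without replicates 1, 2 and 3). It also did so without cycling Jκ1SE replicates 1 or 3 (−1.11 and −1.05 points). The direction was also seen in arrested cells. With L67 the Ku70-/- libraries held 0.558%, 0.528% and 0.652% from the signal end and 1.27%, 1.30% and 1.03% from the coding end. With L82-G17 they held 0.614%, 0.499% and 0.588%, and 1.38%, 1.06% and 1.21%.

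**Figure D1:**
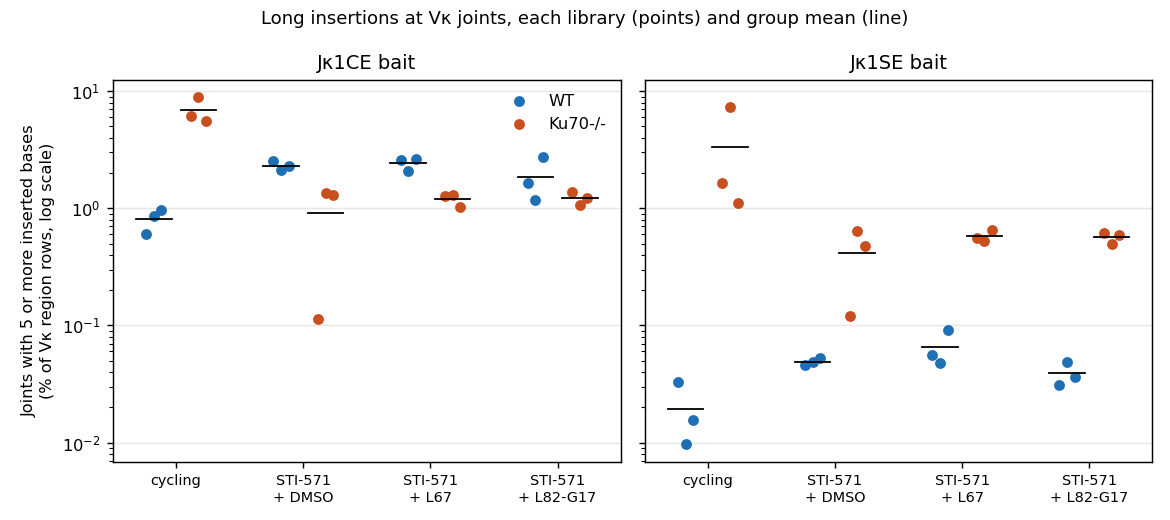
Percent of Vκ region rows with an insertion of 5 or more bases in each of the 48 libraries (log axis), by treatment, bait and genotype; each point is a library and each line the mean of 3. From the coding end WT lies above Ku70-/- in DMSO (2.31% against 0.918%) and below it in cycling cells (0.807% against 6.86%), and from the signal end Ku70-/- is higher throughout.

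Between cycling and arrested cells, the share of Vκ rows differed in opposite directions in the genotypes. From cycling to STI-571 + DMSO the WT share rose from 0.807% ± 0.187 to 2.31% ± 0.223 with the Jκ1CE bait, while the Ku70-/- share went from 6.86% ± 1.79 to 0.918% ± 0.697 (SD, n = 3). Neither pair of groups overlapped, and each exact permutation test of 3 against 3 libraries gave p = 0.1, the smallest it can give. With the Jκ1SE bait the corresponding differences were 0.0298 points in WT and −2.92 points in Ku70-/-, the latter −0.962 points without cycling replicate 2. The Ku70-/- direction depended on the denominator. As a percent of read pairs, DMSO was higher than cycling by 0.0994 points with the Jκ1CE bait and by 0.0987 points with the Jκ1SE bait. With each distinct joint counted once, the Jκ1SE difference was 1.21 points. The Jκ1CE mean then stayed lower in DMSO, with overlap (4.86%, 5.34% and 5.11% against 7.46%, 8.54% and 5.03% in cycling). None of the inhibitor differences from DMSO was called, in exact permutation tests that cannot give p below 0.1. For L67 these were 0.138 points in WT and 0.278 in Ku70-/- from the coding end, and 0.0162 and 0.165 from the signal end. For L82-G17 they were −0.463 and 0.301 points, and −0.0103 and 0.153 points. Exact permutation p-values ran from 0.3 to 1 for these 8 comparisons, and the doses of the 2 compounds differ. The WT Jκ1CE difference for L82-G17 ran from −0.908 to −0.125 points leaving out each library. By distinct joints those WT libraries held 23.1%, 19.4% and 29.8%, against 33.3%, 30.3% and 31.2% in DMSO. Without insertions that match another Vκ end their rows held 0.265%, 0.267% and 0.340%, against 0.402%, 0.410% and 0.408%. Neither pair overlapped. Both Ku70-/- coding end differences turned negative without the sparse DMSO replicate 1 (−0.124 points for L67 and −0.101 for L82-G17). Without the corresponding Jκ1SE library the signal end differences fell to 0.0187 points for L67 and 0.00662 for L82-G17.

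Counting every distinct joint once changed the coding end comparison over the 4 treatments. In DMSO, 31.6% ± 1.55 of distinct WT joints from the Jκ1CE bait carried a long insertion, against 5.10% ± 0.239 in Ku70-/- (SD, n = 3). From the signal end the shares were 4.22% ± 0.601 and 4.39% ± 0.631. Over the 4 treatments the coding end difference was −18.5 points (unadjusted p = 3.75e-05, exact two-sided permutation test), opposite in sign to the share of rows. In DMSO both counts put WT higher. In cycling libraries, where rows put Ku70-/- higher, distinct joints gave 6.08%, 12.3% and 14.2% in WT and 7.46%, 8.54% and 5.03% in Ku70-/-. Depth was unequal, as WT DMSO replicate 1 held 362359 Vκ rows in 14347 distinct joints and Ku70-/- replicate 2 held 115374 in 13039. The part of depth and of the joint definition in this difference was not tested. The number of rows behind each long-insertion joint also differed between groups. A long-insertion joint was read 1.88 ± 0.0504 times in WT DMSO and 2.29 ± 0.0528 times in Ku70-/- DMSO libraries, but 11.0 ± 2.28 times in cycling Ku70-/- and 1.19 ± 0.0119 times in cycling WT libraries with the Jκ1CE bait (SD, n = 3).

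Most distinct long insertions of arrested cells at the coding end read like the joint above, as bases of another Vκ coding end. An insertion was put in this class where 16 consecutive bases of insertion and following prey, after skipping at most 3 bases, occurred within the first 100 bases of another break site's end. For short insertions most of those 16 bases are prey. In WT cells given DMSO, 81.8% ± 1.91 of distinct Jκ1CE joints with a long insertion fell in the class (SD, n = 3). In Ku70-/- the libraries gave 36.2%, 71.4% and 70.3%, a mean of 59.3% ± 20.0, or 70.9% ± 0.780 (SD, n = 2) without replicate 1. Counted by rows, the class held 82.5% of WT and 35.2% of Ku70-/- long-insertion rows in DMSO, the latter close to the 33.6% of wholly palindromic insertions. From the Jκ1SE bait, Ku70-/- insertions again matched another coding end in 55.2% ± 31.9 of joints (SD, n = 3), or 73.6% ± 2.55 (SD, n = 2) without replicate 1. WT signal end insertions matched another signal end in 30.4% ± 0.669, another coding end in 5.79% ± 1.52 and nothing searched for in 34.3% ± 3.48 (SD, n = 3). In cycling Ku70-/- cells the class shrank to 9.04% ± 5.45 of Jκ1CE joints, and 60.5% ± 3.28 matched nothing searched for (SD, n = 3).

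Where both genes were annotated, the mapped gene and the gene matched by the insertion were of the same Igkv family in 77.0% of 5408 WT and 75.7% of 659 Ku70-/- DMSO joints from the Jκ1CE bait. Over all pairs of different annotated break sites, 10.7% were of the same family. A single other end was matched in 4084 of 7294 WT and 469 of 936 Ku70-/- joints within 200 bp of a break site. Where several were matched, the one with the lowest coordinate was taken as the other gene, here and in the values for its end below. Related genes are favoured by the way the class was defined, since an insertion shorter than 16 bases was matched together with prey bases, so the shares of joints are a description. In 72.6% and 68.2% of joints, respectively, the insertion ended at the same distance from the other gene's break as the prey alignment began from its own. At positions where the 2 genes differ, read bases between the insertion and the first gap between mates followed only the mapped gene in 42.3% of those WT joints, only the other gene in 21.5%, and each at some positions in 26.4%. In Ku70-/- these shares were 38.1%, 19.7% and 37.8%. Bases from the second mate followed the mapped gene in 95.7% of 3131 WT and 96.4% of 338 Ku70-/- joints that could be told. Whether the bases of 2 related genes were brought together in the cells, in the PCR or by the alignment was not tested.

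**Figure D2:**
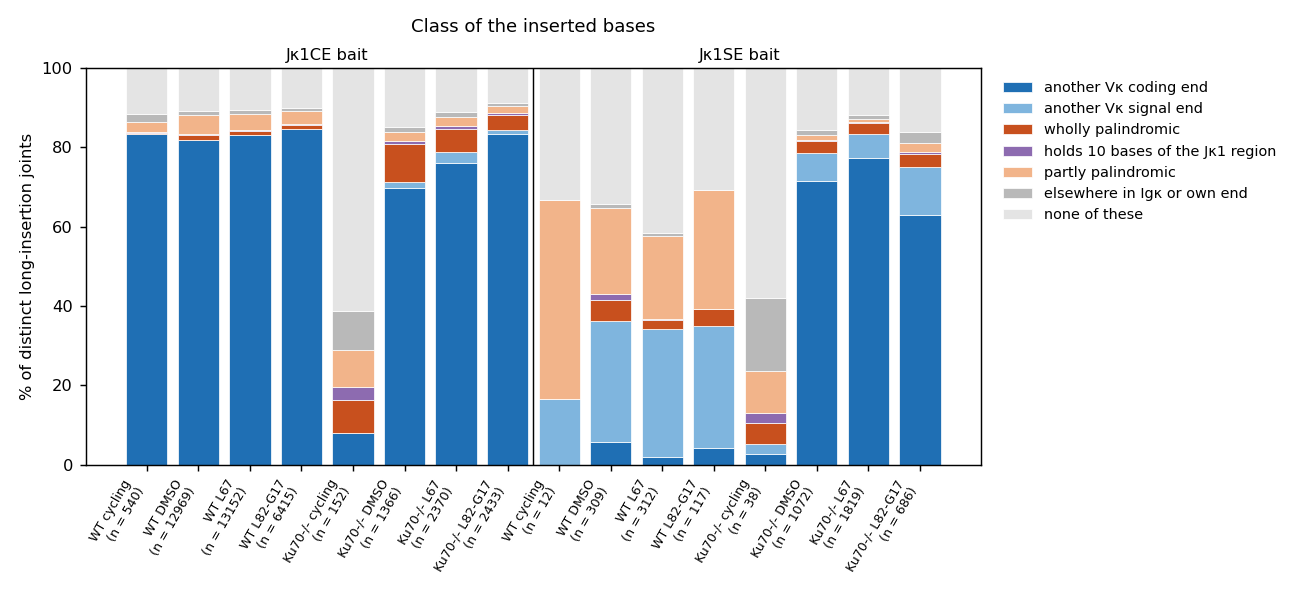
Make-up of long insertions in all 16 groups, as percent of distinct joints summed over the 3 libraries of a group (n under each bar); colours mark the 7 classes, from another Vκ coding end at the bottom to none of these at the top. In DMSO another coding end accounts for 10627 of 12969 WT and 952 of 1366 Ku70-/- joints with the Jκ1CE bait and for 766 of 1072 Ku70-/- joints with the Jκ1SE bait, while WT Jκ1SE joints divide mainly into another signal end (94 of 309), partly palindromic (67) and none of these (106).

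The end of the other gene differed between the genotypes in how much of it was present. In WT Jκ1CE joints the matched stretch began a median of 3 bases inside the other coding end, and 22.3% of the joints had 1 to 3 unmatched bases before it. In Ku70-/- the median was 10 bases and 1.71% had such bases. The same was seen for the Jκ1 end, which in this class had lost a median of 1 base in WT and 14 in Ku70-/-. The WT values stand close to those of direct joints, which have neither inserted bases nor microhomology, where the Jκ1 end had lost 2 and the Vκ end 3 bases. In direct Ku70-/- joints the losses were 17 and 16 bases. The Ku70-/- joint of this class with the most rows (20) is printed with both germline ends and the inserted bases in capitals. It lacked 4 Jκ1 bases, fewer than the median, and its prey began 39 bases inside Igkv8-28.
Ku70-/- joint: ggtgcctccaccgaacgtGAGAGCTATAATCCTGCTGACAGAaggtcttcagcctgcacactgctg
Igkv6-32, chr6:70024018-70024069, plus strand: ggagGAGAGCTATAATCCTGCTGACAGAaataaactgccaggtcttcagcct
Igkv8-28, chr6:70093587-70093649, plus strand: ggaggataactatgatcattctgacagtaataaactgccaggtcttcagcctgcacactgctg
The most used pair in WT was Igkv3-4 as the mapped gene with bases of Igkv3-12, in 47 distinct joints and 242 rows. In Ku70-/- it was Igkv1-135 with bases of Igkv1-110, in 18 distinct joints and 18 rows.

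Insertion lengths had a broad peak around 17 bases in WT coding end joints, above the falling tail of shorter insertions that begins below the 5-base limit. In DMSO, distinct WT Jκ1CE joints had a median insertion of 15 bases (10th to 90th percentile 6 to 22) with 17 the most frequent length, and 22.2% had 5 to 9 bases. Ku70-/- Jκ1CE insertions had a median of 9 (5 to 19), 50.9% had 5 to 9 bases, and 6 was the most frequent length. From the Jκ1SE bait the medians were 8 (5 to 19) in WT and 9 (5 to 17) in Ku70-/-. WT signal end insertions also had a separate group at 17 bases, where 32 of 38 joints matched another signal end. Since length chose the joints, these values are a description.

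**Figure D3:**
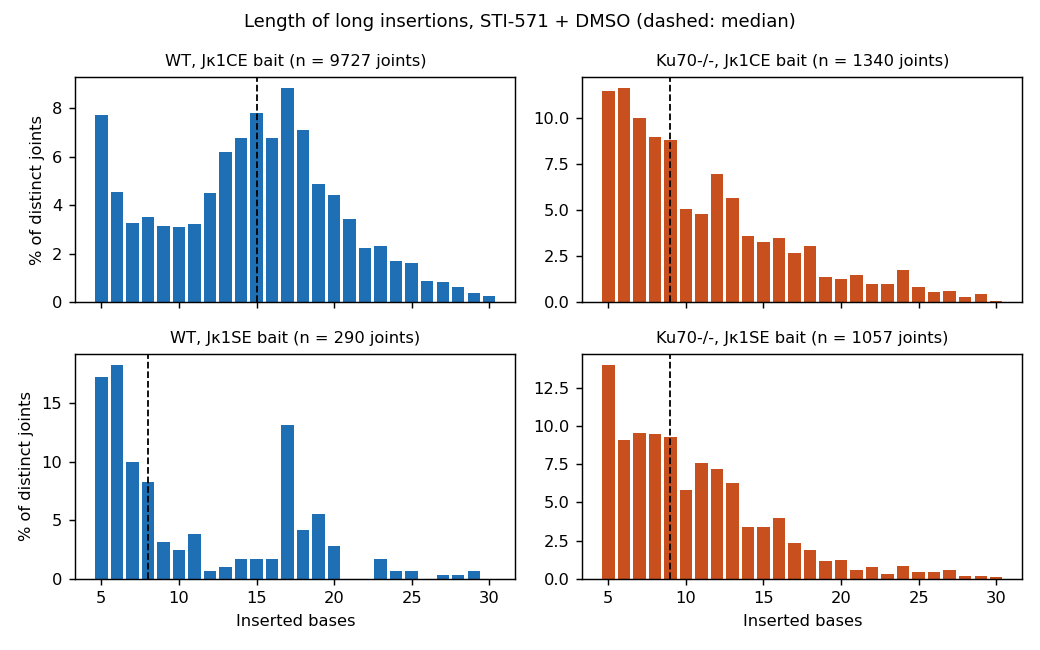
Length of long insertions in distinct joints of the arrested DMSO groups, as percent of distinct joints at each number of inserted bases; the dashed line is the median and the vertical axes differ between panels. WT Jκ1CE has its peak at 17 bases and a median of 15, Ku70-/- Jκ1CE has its highest bars at 5 and 6 bases and a median of 9, and WT Jκ1SE has a peak at 17 beside the tail of short insertions.

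Long insertions in WT were about as long as the stretch missing from the prey end. Length chose the joints, and an insertion that matches a related gene at the same distance from the break has a balanced length by construction, so these values are a description. Over 9404 distinct WT DMSO Jκ1CE joints within 200 bp of a break site, the inserted length minus the prey bases lost had a median of −2 (quartiles −4 and 0), and 64.7% lay within 3 bases of 0. Over 1247 Ku70-/- joints the median was −9 (quartiles −14 and −5) and 11.6% lay within 3 bases. From the Jκ1SE bait the medians were 0 over 278 WT and −9 over 997 Ku70-/- joints. Pearson's r between inserted length and bases lost across joints was 0.818 in WT and 0.276 in Ku70-/- from the coding end, and 0.663 and 0.257 from the signal end, where joints share libraries and genes. Among the 2110 WT Jκ1CE joints that matched no other Vκ end, r was 0.843 and the median 0. Among the 183 such WT Jκ1SE joints r was 0.436 and the median 2, with a net gain of bases in 53.6%, against r of 0.891 and a median of 0 in the 95 that matched.

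**Figure D4:**
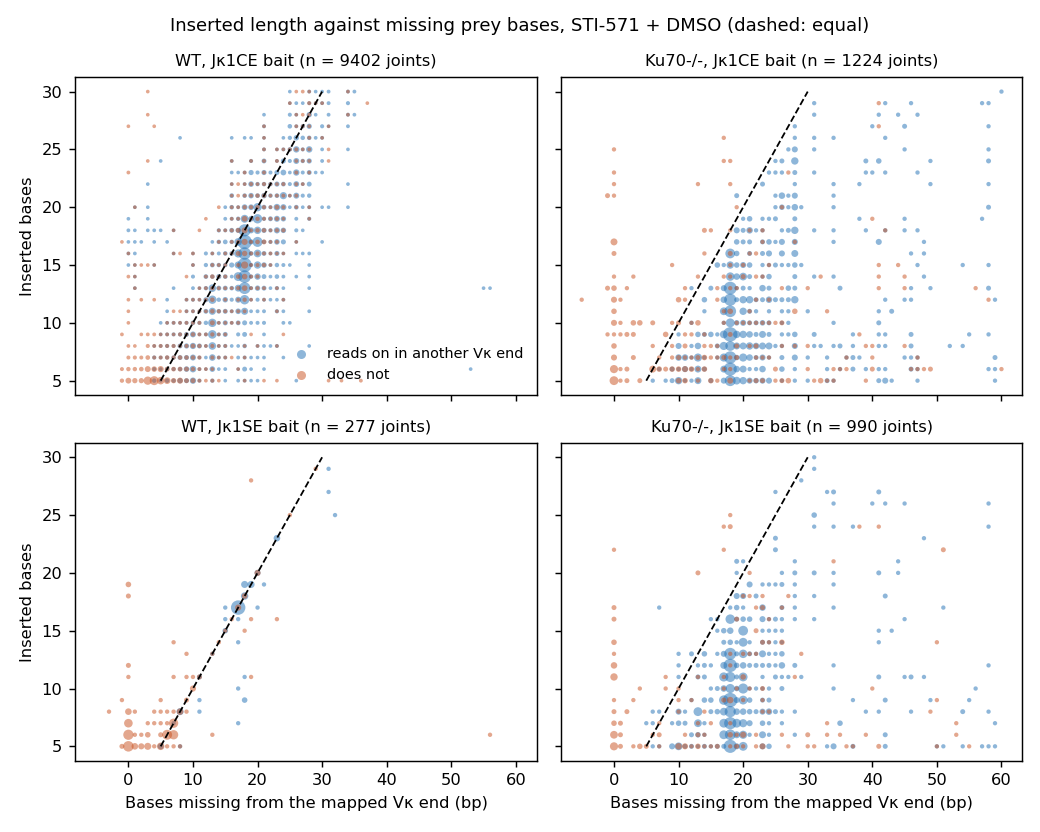
Inserted bases against prey bases lost from the nearest Vκ break for distinct joints of the arrested DMSO groups, for losses of −5 to 60 bases; each point is a pair of values with its area growing with the number of joints, blue for insertions that match another Vκ end and orange for the others, and the dashed line marks equal length. WT joints lie along the line (r = 0.818 for Jκ1CE and 0.663 for Jκ1SE), while Ku70-/- joints lie mostly on the side of greater loss (r = 0.276 and 0.257).

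In the pooled DMSO joints, the GC content of the insertions lay within the range of the Vκ ends. Inserted bases of distinct DMSO joints were 46.5% G or C in WT and 44.9% in Ku70-/- with the Jκ1CE bait, and 47.6% and 44.3% with the Jκ1SE bait, against 44.8% in the first 30 and 46.8% in the first 15 bases of the 138 coding ends. The signal ends held 43.2% and 49.2%. Insertions of 1 to 4 bases held 51.2% in WT and 44.6% in Ku70-/- from the coding end. Over the 3 arrested treatments GC content was lower in Ku70-/- by 1.85 points with the Jκ1CE bait and by 3.78 points with the Jκ1SE bait (adjusted p = 0.0013 and 0.0222, exact two-sided permutation tests). The signal end difference did not hold when every row was counted (−0.876 points, unadjusted p = 0.42, exact permutation test) or without insertions that match another Vκ end (−0.442 points, unadjusted p = 0.826, same test). In the single-strand reading from bait to prey, WT Jκ1CE insertions were rich in G (31.5%) and poor in C (14.97%), while Ku70-/- insertions held 22.8% G and 22.1% C.

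Runs of 4 or more of the same base were found in 18.3% of distinct WT Jκ1CE insertions and 7.09% of Ku70-/- insertions in DMSO, and in 7.93% and 9.74% from the signal end. The longest runs had 13, 5, 5 and 7 bases in that order. Among the 138 germline coding ends, 18.8% held such a run within their first 30 bases, a stretch as long as the longest insertion. WT Jκ1CE insertions were also longer at the median than Ku70-/- ones, so these shares are not matched for length. Of the 1779 WT Jκ1CE insertions with a run, 1417 matched another coding end. The 5 inserted sequences shared by most WT Jκ1CE joints included 4 that held such a match, 3 of them to Igkv4-50 (TGGGGAACTAGTAA, GGATGGGGAACTAGTAA and GATGGGGAACTAGTAA, in 55, 51 and 41 distinct joints at 18, 16 and 17 sites).

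Palindromes differed between the genotypes in length. A mirror was scored where the insertion opened with the reverse complement of the bait end, or closed with that of the prey end. The Jκ1 coding end, read toward the break, and its mirror are printed for comparison, with a WT and a Ku70-/- joint whose insertion is a mirror over its whole length.
Jκ1 coding end, chr6:70672556-70672573, minus strand: cctccaccgaacgtccac
mirror of that end, plus strand: GTGGACGTTCGGTGGAGG
WT joint, 6 rows, Igkv4-80: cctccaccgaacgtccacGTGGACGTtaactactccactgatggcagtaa
Ku70-/- joint, 3 rows, Igkv4-80: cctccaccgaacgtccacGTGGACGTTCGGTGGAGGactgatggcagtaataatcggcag
These were the longest mirrors of the untrimmed Jκ1 end in the DMSO groups, 8 bases in WT and 18 in Ku70-/-. A mirror of the Vκ end reached 7 bases in WT and 25 in Ku70-/-, the latter in a joint mapped to Igkv6-23 and read in 1 row.

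At the Jκ1 coding end left untrimmed, WT and Ku70-/- insertions separated by mirror length. Of 3644 distinct WT DMSO joints of this kind, 765 had 0 mirrored bases, 1617 had 1, 642 had 4 and 287 had 5, and 0.274% had 6 or more. Of 138 Ku70-/- joints, 6 had 0, 41 had 6, 10 had 10 and 66.7% had 6 or more. The sets differed in class. Insertions that match another Vκ end had an untrimmed Jκ1 end in 35.5% of 7543 WT and 0.417% of 959 Ku70-/- joints. Among insertions without such a match, trimmed or not, 9 of 2184 WT and 93 of 381 Ku70-/- joints mirrored 6 or more Jκ1 bases. The Ku70-/- joints with 6 or more mirrored Jκ1 bases, 93 in all, lay at 84 prey positions and 47 break sites. Insertion GTGGAC was the most shared, in 30 distinct joints at 20 sites with 327 rows, while WT joints most often held GTGGA, in 71 distinct joints at 59 sites with 865 rows.

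**Figure D5:**
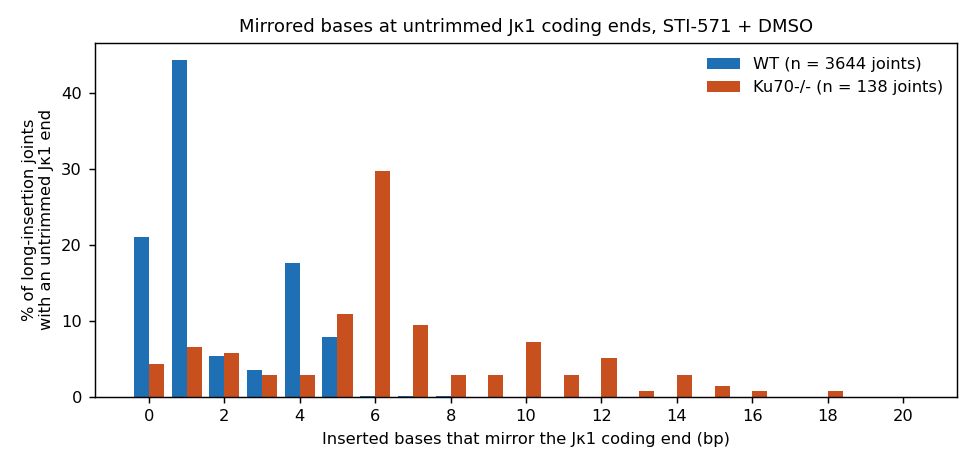
Number of inserted bases that mirror the Jκ1 coding end, as percent of distinct long-insertion joints whose Jκ1 end is untrimmed, arrested DMSO libraries (3644 WT and 138 Ku70-/- joints). WT joints end at 8 mirrored bases with 0.274% at 6 or more, and Ku70-/- joints reach 18 with 66.7% at 6 or more. The sets differ in class, as insertions that match another Vκ end had an untrimmed Jκ1 end in 35.5% of WT and 0.417% of Ku70-/- joints.

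With the threshold of 3 mirrored bases at either end, 19.5% ± 0.0701 of distinct WT and 8.54% ± 7.40 of Ku70-/- Jκ1CE joints were palindromic in DMSO (SD, n = 3), the Ku70-/- libraries giving 0%, 12.8% and 12.8%. Over the arrested treatments Ku70-/- was lower by 10.1 points (adjusted p = 0.000722, exact two-sided permutation test). The direction turned with the definition. Wholly palindromic insertions were more frequent in Ku70-/- by 4.24 points (unadjusted p = 0.003, exact permutation test), and mirrors of 6 or more bases by 5.60 points (unadjusted p = 0.001, same test). Among insertions without a match to another Vκ end the difference was 4.78 points (unadjusted p = 0.451, exact permutation test). Of 1786 WT DMSO joints that mirrored 3 or more Jκ1 bases, 64.3% also matched another Vκ end, against 2.5% of 120 in Ku70-/-. These mirrors were scored from where the bait alignment stopped, trimmed or not. They were found in 29.3% of WT and 83.3% of Ku70-/- joints with an untrimmed Jκ1 end, and in 11.8% and 0.416% with a trimmed one. A Jκ1 end trimmed to tcc has the mirror GGA, with which 43.5% of the 138 Vκ coding ends begin, so another coding end can score there. As a background, the mirror of bases 4 to 6 from the end of either alignment was sought instead. It opened (bait) or closed (prey) 0.685% ± 0.0812 of WT and 2.21% ± 2.10 of Ku70-/- insertions (SD, n = 3). A 3-base match to the complement without reversal was found in 11.3% ± 0.131 and 6.82% ± 5.91 (SD, n = 3). That match cannot serve as a background at an untrimmed Jκ1 end, because cac gives GTG in either order. Wholly palindromic insertions held 4.09% of long-insertion rows in WT and 33.6% in Ku70-/- Jκ1CE libraries with DMSO.

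At the signal end, mirror and neighbouring signal share letters. The Jκ1 signal end closes with cactgtg, whose reverse complement is the heptamer CACAGTG itself, so an insertion that begins with another Vκ signal also scores as a mirror. Palindromic insertions made up 56.4% ± 4.93 of WT and 6.87% ± 0.652 of Ku70-/- Jκ1SE joints in DMSO (SD, n = 3), lower in Ku70-/- by 49.7 points over the arrested treatments (adjusted p = 0.000722, exact two-sided permutation test). For wholly palindromic insertions the difference was −1.16 points (unadjusted p = 0.307, same exact permutation test). The complement without reversal was found in 56.4% ± 6.80 of WT and 2.86% ± 1.06 of Ku70-/- joints in DMSO (SD, n = 3). It is no background here either, because gtg gives CAC in either order. Of 290 WT insertions 46.2% began with CAC and 22.4% with CACAGTG. The WT joint matching a single other signal end with the most rows (9) mapped to Igkv4-90, but every base printed beyond the Jκ1 end is that of the Igkv4-58 signal end, so this stretch reads as a joint to Igkv4-58 with no insertion.
WT joint: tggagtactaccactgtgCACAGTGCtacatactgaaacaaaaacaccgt
Igkv4-58, chr6:69450216-69450247, minus strand: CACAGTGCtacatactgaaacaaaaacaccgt
Igkv4-90, chr6:68757141-68757172, minus strand: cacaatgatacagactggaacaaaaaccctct

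Jκ1 ends joined through a long insertion were untrimmed more often in WT than in Ku70-/-. The Jκ1 coding end was untrimmed in 38.1% ± 0.741 of WT and 7.05% ± 6.14 of Ku70-/- DMSO joints (SD, n = 3), the Ku70-/- libraries giving 0%, 11.2% and 9.95%, and lower by 30.5 points in Ku70-/- over the arrested treatments (adjusted p = 0.000722, exact two-sided permutation test). For direct joints of the same DMSO libraries pooled, the values were 30.7% and 0.37%. The gap lay mainly in insertions that match another Vκ end, where 35.5% of WT and 0.417% of Ku70-/- Jκ1 ends were untrimmed in pooled DMSO joints. Among the other long insertions the values were 44.2% and 35.2%. At the signal end the Jκ1 end was untrimmed in 59.97% ± 5.40 of WT and 14.2% ± 2.47 of Ku70-/- joints (SD, n = 3), lower by 49.8 points (adjusted p = 0.000722, same exact permutation test). Untrimmed Vκ ends were rare with the Jκ1CE bait, at 0.596% ± 0.0963 in WT and 3.06% ± 2.70 in Ku70-/- (SD, n = 3), where the libraries gave 0%, 4.04% and 5.13%, and Ku70-/- was higher by 2.01 points over the arrested treatments (adjusted p = 0.0100, exact two-sided permutation test). Counting ends within 3 bases of the break instead, that difference was 1.28 points (unadjusted p = 0.0702, exact permutation test). With the Jκ1SE bait untrimmed Vκ ends were found in 18.2% ± 0.830 of WT and 4.37% ± 0.368 of Ku70-/- joints (SD, n = 3), lower by 14.9 points (adjusted p = 0.000722, exact two-sided permutation test). This difference was −1.33 points when every row was counted and −1.52 points for insertions of 10 or more bases. The break positions were themselves set by pile-ups of the arrested WT Jκ1SE libraries, so the WT side of this comparison is not independent of them. Values for the Vκ end also moved with class make-up, since insertions that match another Vκ end had an untrimmed mapped end in 0.110% of WT and 0% of Ku70-/- pooled DMSO joints with the Jκ1CE bait, and in 0% of both with the Jκ1SE bait. Among the other long insertions 3.08% of WT and 17.7% of Ku70-/- Vκ ends were untrimmed with the Jκ1CE bait, and 29.5% and 22.2% with the Jκ1SE bait.

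The Vκ prey end also depended on genotype. With the Jκ1CE bait, 99.9% ± 0.0926 of WT and 88.5% ± 8.30 of Ku70-/- joints near a site led to a coding end (SD, n = 3; 78.9%, 93.8% and 92.8% in the Ku70-/- libraries), a difference of −7.41 points over the arrested treatments (adjusted p = 0.000722, exact two-sided permutation test). With the Jκ1SE bait, where a coding prey makes a hybrid joint, the shares were 8.39% ± 3.97 in WT and 85.1% ± 7.38 in Ku70-/- (SD, n = 3), a difference of 77.9 points (adjusted p = 0.000722, same exact permutation test). Direct Ku70-/- joints from the same DMSO libraries led to a coding end in 60.04% (Jκ1CE) and 45.3% (Jκ1SE), against 92.8% and 88.8% of long-insertion joints in the same pooled values. In WT the shares with the Jκ1SE bait ran the other way, with 8.99% of long-insertion and 17.4% of direct joints. The Ku70-/- long-insertion shares also differed by class. Insertions that match another Vκ end led to a coding end in 97.5% (Jκ1CE) and 90.9% (Jκ1SE), and the others in 78.5% and 80.3%. These differences are given without a test.

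Long insertions were spread over 115 of 138 break sites in WT and 92 in Ku70-/- with the Jκ1CE bait and DMSO, and over 70 and 74 sites with the Jκ1SE bait. The WT coding end sites with the most were Igkv4-50 (break between chr6:69650760 and chr6:69650761), Igkv4-61 (chr6:69366886 and chr6:69366887) and Igkv8-21 (chr6:70264888 and chr6:70264889). They held 411, 358 and 358 distinct joints, which were 55.2%, 55.2% and 59.4% of all distinct Vκ joints at those sites, against 35.7% over all sites. Each of the 3 libraries contributed, with 219, 196 and 181 joints at Igkv4-50. In Ku70-/- Igkv1-135 led (chr6:67560502 and chr6:67560503) with 71 joints, followed by Igkv8-21 with 68 and Igkv4-61 with 49. These were 8.51%, 13.2% and 10.6% of distinct joints there, against 5.53% over all sites. From the signal end, Ku70-/- insertions were most frequent at Igkv4-61, Igkv4-50 and Igkv8-21 (73, 67 and 55 joints). WT had only 17, 14 and 13 at its leading sites Igkv16-104, Igkv1-135 and Igkv3-10. Because the sites were ranked on these counts, no test is given.

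Recurrence across libraries was more frequent in WT than in Ku70-/- joints with the Jκ1CE bait. Of 18306 distinct WT joints over 12 libraries, 29.4% were found in 2 or more, 1032 in 6 or more and 5 in all 12, against 7.65%, 11 and 1 of 5674 in Ku70-/-. The joint with insertion AAGTCTAG, printed above, was present in all 12 Ku70-/- Jκ1CE libraries and in no WT library. It had 44, 103 and 53 rows in DMSO libraries, 101, 109 and 97 in cycling libraries and 972 rows in all. Insertions TAATATATC, AAACAACAAAACAACAAAA and ATACT recurred in 11 of the 12 libraries, with 440, 298 and 291 rows, and were each absent from DMSO replicate 1. Of these preys, that of ATACT lay 28 bp from a break site and the others more than 200 bp away. In cycling Ku70-/- Jκ1CE libraries the 5 most frequent joints held 48.7% of the 1609 long-insertion rows, and 30.5% of rows lay within 200 bp of a break site, against 97.2% in cycling WT and 78.5% in arrested Ku70-/- cells. Long-insertion joints already present in a cycling library of the same genotype and bait made up 17.2% of arrested Ku70-/- and 14.7% of arrested WT rows from the coding end, and 7.56% and 0.485% from the signal end. Leaving them out of the arrested libraries moved the genotype difference of the Jκ1SE share, averaged over treatments, from 1.18 to 1.14 points. The cycling libraries, where the difference was 3.32 points, kept all their joints. In cycling Ku70-/- Jκ1SE libraries the 5 most frequent joints held 65.5% of long-insertion rows. The change to 1.14 points therefore cannot tell how far recurrent joints carry the difference. Within DMSO groups, 924 of 9727 distinct WT Jκ1CE joints were found in all 3 libraries, and 1 of 1340 in Ku70-/-, where replicate 1 held only 47. With L67 and L82-G17 the Ku70-/- counts were 5 of 2286 and 11 of 2322. Over all 12 libraries of a genotype, 184 distinct Jκ1CE joints were found in both WT and Ku70-/- cells.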

How the data were processed

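Per the labels, the authors read genomic DNA from 48 libraries with paired reads. Following the study's methods, they demultiplexed with fastq-multx, trimmed adapters with SeqPrep, drew 500000 read pairs per library with Seqtk, mapped to mm9 (Bowtie2 is named in the submitters' processing notes) with TranslocWrapper.pl without removing duplicates, and added bait-region joints with the JoinT script in R. Versions of these tools are not given in the sources used here. The deposited tables hold 1 row per read pair with alignment coordinates and the read sequence, and no normalized values.

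Insertions were the read bases between bait and prey alignments. Break sites were junction pile-ups of at least 30 rows in the arrested WT Jκ1SE libraries, 50 bp apart, with CAC at the start of their signal side. Bases lost were counted from the nearest site within 200 bp, reading mm9 sequence. Mirrors were reverse complements of at least 3 bases at the end of the bait or prey alignment, whether or not that end was trimmed. Libraries were the replicates, and library means were compared with exact two-sided permutation tests, within treatments where several were joined, adjusted by Benjamini-Hochberg over 26 tests (Python 3.11.15, NumPy 2.4.6, pandas 2.3.3, SciPy 1.17.1). The test code was checked on simulated data. Intervals behind shares are exact binomial ones (95%) and cover counting error only, as PCR copies are not independent molecules. The members, classes and lists were chosen with earlier results of these data known. Sites named were the 3 with most distinct long-insertion joints per genotype and bait in DMSO. Sequences printed were the 5 insertions in most joints, joints with most rows and longest insertions, with recurrent joints and example pairs added after their values were seen. Alternatives counted each joint once or every row, required 10 bases, used read pairs as denominator or kept joints near sites. Others kept either of 2 batches, told apart by a field of the read names, or left out each library.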

Additional observations from a re-analysis of the deposited data

Results flagged for a closer look

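The effect of arrest on the share of Jκ1CE rows with a long insertion differed between the genotypes by −7.45 percentage points (Ku70-/- effect of −5.94 minus WT effect of 1.51). With the Jκ1SE bait the difference was −2.95 points (−2.92 minus 0.0298), nearly all of it the Ku70-/- effect, which was −0.962 without cycling replicate 2. An exact permutation test over 400 arrangements gave p = 0.005 for each of these differences between the genotypes (adjusted p = 0.015, Benjamini-Hochberg over 6 tests). The flag itself used this test. In each case every DMSO library of WT lay above and every DMSO library of Ku70-/- below the cycling libraries of its genotype. The Ku70-/- direction turned under some other denominators. Of 500000 read pairs each, the Ku70-/- Jκ1CE libraries gave 553, 621 and 435 long-insertion rows in cycling and 109, 1549 and 1442 in DMSO, and with each joint counted once the Jκ1SE effect was 1.21 points. Counting joints once did not turn the Jκ1CE direction. Rows per distinct joint moved with these shares in Ku70-/- cells, from 11.0 ± 2.28 in cycling to 2.29 ± 0.0528 in arrested Jκ1CE libraries (SD, n = 3), and their part in the difference was not tested.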

How the results depend on the processing

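No paired analysis was possible because the labels give no replicate numbers, and the numbers used here follow the order of deposit. The Ku70-/- minus WT share with the Jκ1CE bait (0.692 points) became −18.5 with each distinct joint counted once, −0.545 for insertions of 10 or more bases, −0.781 as percent of read pairs and −0.368 within 200 bp of a break site. Without insertions that match another Vκ end, an alternative chosen after seeing the data, it was 1.82 points (p = 0.00119, exact permutation test), and −1.50 with each joint also counted once. With the Jκ1SE bait (1.18 points) it was 0.519 with each joint once, and −0.512 when both were applied. The bait difference in Ku70-/- (−1.32) became 0.0393 for 10 or more bases, −1.11 in the smaller read-name batch and −1.12 without matching insertions, and ran from −1.81 to −1.05 leaving out each library. Counting joints once turned the L67 difference to −0.405 (WT Jκ1CE), −0.173 (WT Jκ1SE) and −0.0442 (Ku70-/- Jκ1SE), L82-G17 to −1.70 and arrest to 1.21 (both Ku70-/- Jκ1SE). As percent of read pairs, arrest gave 0.0994 (Jκ1CE) and 0.0987 (Jκ1SE) in Ku70-/-, and L82-G17 −0.0189 (Ku70-/- Jκ1SE). Without matching insertions L82-G17 gave −0.0842 (Ku70-/- Jκ1CE). Leaving out each library, the Ku70-/- Jκ1CE differences ran from −0.124 to 0.490 for L67 and from −0.101 to 0.513 for L82-G17. The Jκ1SE GC difference was −0.876 over every row and −0.442 without matching insertions. The Jκ1CE palindromic difference was 2.86 over every row, 4.78 without matching insertions, −2.63 for 4 or more bases, 4.24 for whole palindromes and 5.60 for 6 or more bases, and the Jκ1SE one −1.16 for whole palindromes. The untrimmed Vκ end difference was 1.28 within 3 bases (Jκ1CE), −1.33 over every row and −1.52 for 10 or more bases (Jκ1SE). The cause of these changes was not tested. No insertion was 80% or more identical to the germline bases beside the joint, so that alternative removed 0. WT cycling Jκ1SE libraries, with 2 to 7 rows, limit every value drawn from them.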
